A study of Rattus norvegicus with 6 samples.

Results

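Chemokines are small secreted proteins that direct the migration of leukocytes and other cells, and the genes of their ligands and receptors were described here in Schwann cell precursors (SCPs) and repair Schwann cells (RSCs) of the rat. The members were all gene symbols of the deposited tables beginning with Ccl, Cxcl, Ccr, Cxcr or Ackr followed by a number, together with Cx3cl1, Cx3cr1, Xcl1 and Xcr1. This rule found 55 genes (34 ligands and 21 receptors, with 94 annotated transcripts) among 29468 gene symbols. A value above 0 was found for 20494 of these symbols.

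RNA-seq was carried out on 3 SCP samples and 3 RSC samples from LEWIS rats, labelled as wild type in both groups. The SCPs came from sciatic nerves and brachial plexus of embryos at embryonic day 14 and were untreated. The RSCs came from the nerve distal to a transection of the sciatic nerve in rats 10 weeks old, 1 week after the cut. In both groups the tissue was digested enzymatically, the RSCs with more collagenase and for longer, and cells that attached quickly to uncoated flasks were discarded to reduce fibroblasts and macrophages, so the comparison joins developmental age, injury and preparation. By the study's methods the 3 samples of a group are separate cell preparations, and p-values measure the spread between these preparations, since the sources used here do not tie them to separate litters or animals.

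In the chemokine system, ligands are grouped by the spacing of their first cysteines into CC, CXC, CX3C and XC classes, and most signal through receptors coupled to inhibitory G proteins. Many ligands share a receptor, and several genes of a class lie side by side in the genome. Atypical receptors, named Ackr in part, bind ligands without this G protein signal and mostly remove them. After nerve injury, chemokines are known for bringing blood monocytes into the distal nerve, and in development Cxcl12 and its receptor Cxcr4 are known for guiding migrating cells, neural crest derivatives included.

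Promoter sequences are shown for the 3 ligand genes with the largest log2 fold change towards RSCs in named transcripts (Cxcl10, Ccl6 and Cxcl1). Sequences are also shown for Cxcl2, the neighbour of Cxcl1, and for Cxcl12, the 1 ligand gene called higher in SCPs in named transcripts. They are the 250 bases upstream of the annotated start, written 5′ to 3′ along the gene's strand, from RefSeq on the GRCr8 build. Capitals mark matches to motifs of NF-kappaB, AP-1 (TGANTCA), the interferon-stimulated response element (GAAA, then 2 bases of any kind, then GAAA) and the TATA box (TATAAA), searched on both strands except for the TATA box, which was searched on the gene's strand only. The windows were chr14:15988816-15989065 (plus strand) for Cxcl10, chr14:17479322-17479571 (minus strand) for Cxcl1, chr14:17467256-17467505 (minus strand) for Cxcl2, chr10:68883367-68883616 (minus strand) for Ccl6 and chr4:152060531-152060780 (plus strand) for Cxcl12.
Cxcl10: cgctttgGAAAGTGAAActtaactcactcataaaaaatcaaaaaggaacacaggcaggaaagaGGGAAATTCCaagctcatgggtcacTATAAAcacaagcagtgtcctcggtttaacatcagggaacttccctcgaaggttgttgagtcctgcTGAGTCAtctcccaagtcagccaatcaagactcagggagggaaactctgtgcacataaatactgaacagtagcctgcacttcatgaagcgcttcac
Cxcl1: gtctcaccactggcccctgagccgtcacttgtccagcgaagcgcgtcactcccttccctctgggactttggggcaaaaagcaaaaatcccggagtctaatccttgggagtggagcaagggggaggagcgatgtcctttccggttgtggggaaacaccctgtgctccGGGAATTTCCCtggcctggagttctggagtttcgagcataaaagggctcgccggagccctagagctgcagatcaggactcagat
Cxcl2: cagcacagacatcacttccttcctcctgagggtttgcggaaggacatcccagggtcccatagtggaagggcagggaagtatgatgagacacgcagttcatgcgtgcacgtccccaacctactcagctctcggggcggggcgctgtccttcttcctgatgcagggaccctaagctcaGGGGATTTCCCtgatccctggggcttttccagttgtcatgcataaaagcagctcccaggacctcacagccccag
Ccl6: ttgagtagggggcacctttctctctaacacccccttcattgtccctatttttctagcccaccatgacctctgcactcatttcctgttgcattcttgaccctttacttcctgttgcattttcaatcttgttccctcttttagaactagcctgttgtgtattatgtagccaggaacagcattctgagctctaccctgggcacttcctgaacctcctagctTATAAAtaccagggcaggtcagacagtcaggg
Cxcl12: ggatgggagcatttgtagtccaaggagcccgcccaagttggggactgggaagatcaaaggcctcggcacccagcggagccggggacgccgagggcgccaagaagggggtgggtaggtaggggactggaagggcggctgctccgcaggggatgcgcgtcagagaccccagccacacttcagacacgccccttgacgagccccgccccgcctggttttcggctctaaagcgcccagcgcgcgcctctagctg

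The Cxcl10 window held 1 match to each of the 4 motifs. The windows of Cxcl1 and Cxcl2 each held 2 overlapping NF-kappaB matches, printed as 1 run of capitals, and the Ccl6 window held only a TATA box match. No match was found in the Cxcl12 window, which says only that these letters are not in these 250 bases. A window was matched by symbol for 41 of the 55 members, 1 of them (Cxcr7) under its newer name Ackr3, and members without one included Ccl2, Ccl3, Ccl4, Ccl5, Ccl11, Cxcl3, Ccr7 and Ackr1. Of the 11 ligands with a window among those called higher in RSCs, 4 (Ccl9, Cxcl1, Cxcl10 and Cxcl2) held an NF-kappaB match, against 3 of the other 17 ligands (Ccl20, Cxcl11 and Cxcl6) and 3.54% of all 33469 windows of this length. AP-1 matches were found in Ccl7 and Cxcl10 among those 11 ligands, in Cxcl11 and Cxcl14 among the other ligands and in 6.34% of all windows. An interferon-stimulated response element was found in Cxcl10 and Ccl19 among the ligands and in 3.41% of all windows. A TATA box match was found in 6 of the 11 ligands (Ccl12, Ccl24, Ccl6, Ccl7, Cx3cl1 and Cxcl10), in 2 of the other 17 (Cxcl11 and Cxcl13) and in 8.06% of all windows. These matches are a description of letters and were not tested as binding sites.

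Levels are given as FPKM, fragments normalized to transcript length and library size, which the authors estimated with Cufflinks and which were summed here over the named transcripts of a symbol. Because FPKM are scaled by transcript length, levels of different genes can be set side by side as estimates, with limits for some genes given below. Transcripts without a gene name, left out of these sums, held 31.9%, 27.9% and 26.1% of all FPKM in SCPs 1 to 3. In RSCs 1 to 3 they held 23.4%, 18.8% and 18.6%. Genes were compared by limma on log2(FPKM + 1), RSC minus SCP, over the 13003 genes whose FPKM averaged 1 or more across both groups, and a gene was called at the study's thresholds of an unadjusted p under 0.01 and, for large changes, a log2 fold change over 2 (4-fold). Adjusted p-values in this report are Benjamini-Hochberg values from this limma fit over all 13003 genes, unless another number of genes is given. The fold changes are on the log2(FPKM + 1) scale and understate the change of genes with low values. The median log2 fold change of all tested genes was -0.17, and median-of-ratios scaling moved it to 0.01. Of the 55 members, 30 passed the filter (22 ligands and 8 receptors), and for 13 of these the mean reached 1 FPKM in RSCs only, so these members passed through the group in which they were higher.

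The depth of the libraries is unknown because the tables hold no read counts, and relative depth was 0.879 to 1 in SCPs and 0.79 to 0.841 in RSCs as a fraction of the deepest sample. Sox10, the transcription factor of the Schwann cell lineage, was measured in all 6 samples, at 179, 175 and 181 FPKM in SCPs and 149, 143 and 143 FPKM in RSCs. Listed zeros can be failed estimates, since Rac1, a GTPase used by most cells, had FPKM of 81.7, 0 and 61 in SCPs and 71.8, 91.3 and 87.7 in RSCs.

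Markers of other cells differed between the groups, and chemokine genes are strongly expressed by leukocytes. The counts below stand beside the shares of all tested genes, of which 18.1% were called higher in RSCs and 22.4% in SCPs. Past 4-fold these shares were 7.81% and 3.78%. All 11 tested macrophage markers were called over 4-fold higher in RSCs, and their summed level was 21.8 to 64.8 FPKM in SCPs and 2950 to 3762 FPKM in RSCs. The macrophage marker Aif1 was at 1.13, 4.6 and 6.36 FPKM in SCPs and 142, 159 and 149.9 FPKM in RSCs, and no macrophage marker was listed at 0 in a whole group. General leukocyte markers (Ptprc, Laptm5 and Coro1a) summed to 9.49 to 13.6 FPKM in SCPs and 142 to 165 FPKM in RSCs. The 9 markers of T cells and natural killer cells summed to 0.304 to 0.951 FPKM in SCPs, where Cd3d, Cd3e, Cd2, Cd8a, Ncr1 and Prf1 were at 0 in all 3 samples, and to 15.1 to 39.7 FPKM in RSCs, and 6 of 6 tested were called higher there. Of the neutrophil markers 1 of 2 tested was called higher in RSCs (summed level 0.917 to 3.72 FPKM in SCPs and 5.15 to 9.1 FPKM in RSCs), 1 of 2 dendritic cell markers and 2 of 3 mast cell markers, and no B cell marker passed the filter. Fibroblast markers were higher in RSCs for 7 of 8, from 643 to 1022 FPKM in SCPs to 5380 to 8029 FPKM in RSCs. Endothelial and mural markers were higher in RSCs for 1 of 8 and 1 of 6, not above the share of all tested genes. Red cell markers, globins among them, were higher in SCPs for 5 of 6, with a summed level of 26119 to 116143 FPKM in SCPs and 1357 to 1848 FPKM in RSCs, and neuronal markers were higher in SCPs for 2 of 5. Dissociation-responsive genes such as Fos were called higher in RSCs for 13 of 15 (summed level 1178 to 1362 FPKM in SCPs and 6089 to 7219 FPKM in RSCs). The part of these differences in the chemokine values was not tested, and in bulk samples fewer cells of a type and less RNA per cell cannot be told apart.

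The ligand repertoires of the groups differed in both size and composition. The summed FPKM of the 34 ligands was 253, 289 and 239 in SCPs 1 to 3 and 1151, 1179 and 1168 in RSCs 1 to 3, a ratio of means of 4.48. In SCPs a single gene, Cxcl12, held 82.2%, 71.0% and 50.2% of this sum, and in RSCs it held 1.24%, 1.15% and 0.983%. In RSCs the sum was spread over several genes, with Ccl6 at 22.2% to 33.8%, Cxcl1 at 12.2% to 15.2%, Ccl2 at 10.1% to 13.5%, Ccl3 at 10.5% to 11.9% and Ccl4 at 10.2% to 10.7%. The CC ligands summed to 56.9 ± 32.8 FPKM in SCPs and 792 ± 55.7 FPKM in RSCs (mean ± SD, n = 3), and the CXC ligands to 202 ± 47.2 and 368 ± 38.7 FPKM.

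Of the 22 tested ligands, 17 were called higher in RSCs, where 18.1% of all tested genes were called in this direction, and 1 was called higher in SCPs, where the background was 22.4%. Past 4-fold there were 14 ligands in RSCs against a background of 7.81%, and 1 in SCPs against 3.78%. Values of the 2 groups did not overlap for 18 ligands that were higher in RSCs (24.9% of all tested genes) and for 2 that were higher in SCPs (33.7%). The median log2 fold change of the 22 tested ligands was 2.46, in which 3 ligands (Ccl5, Ccl24 and Cxcl11) enter with SCP values listed at 0 and a size set in part by the pseudocount. The ligands Ccl5, Ccl11, Ccl12, Ccl24, Cx3cl1, Cxcl3, Cxcl10, Cxcl11 and Xcl1 reached a mean of 1 FPKM in RSCs only. They passed the filter through that group, so the counts above do not give their direction independently of the filter.

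**Figure D1:**
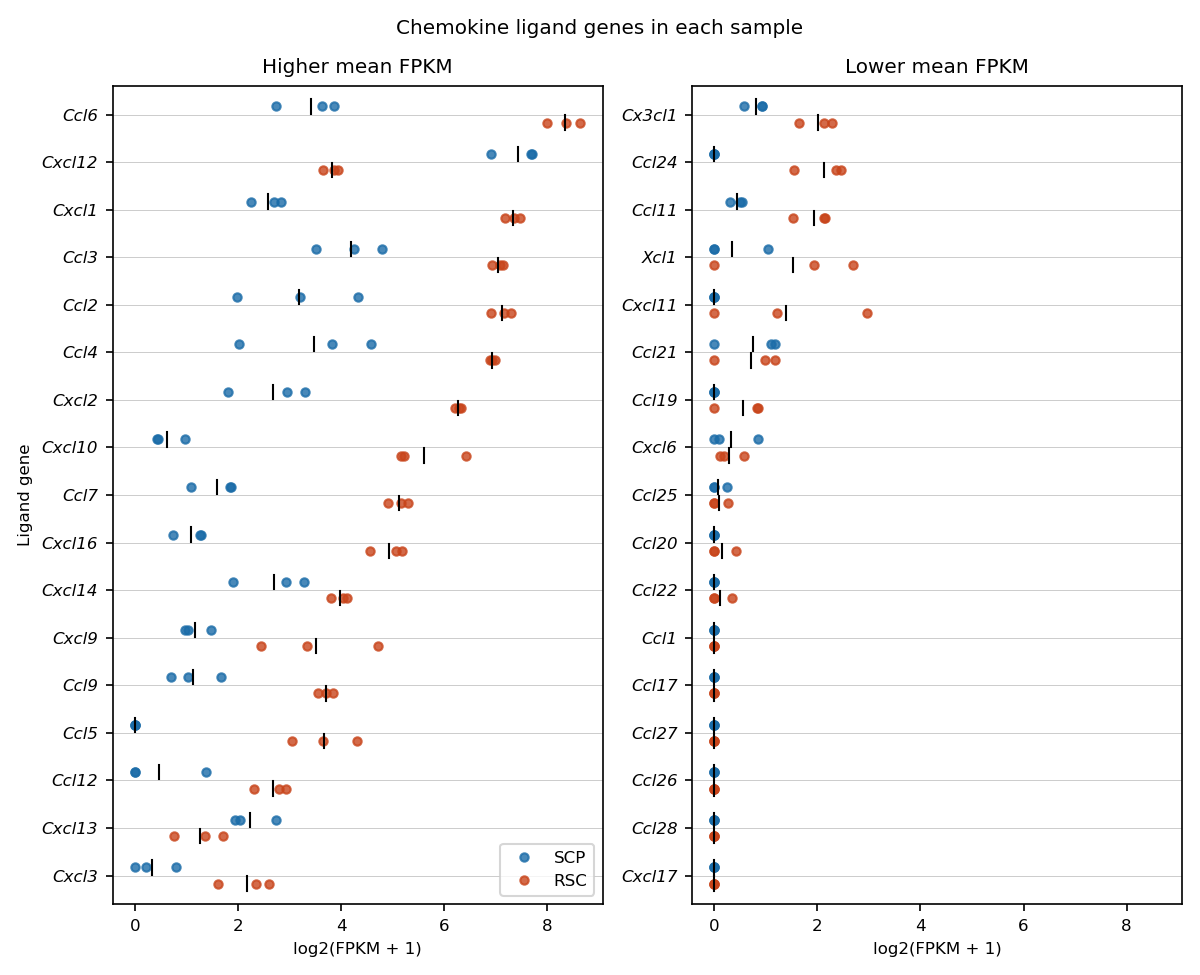
Level of each of the 34 chemokine ligand genes as log2(FPKM + 1) in the 3 SCP samples (blue) and the 3 RSC samples (orange), with a black line at the group mean, in order of mean FPKM over the 6 samples. Cxcl12 is at 119.8 to 208 FPKM in SCPs and 11.5 to 14.3 FPKM in RSCs, while most other ligands in the left panel are higher in RSCs.

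The monocyte attractants of the CC class were higher in RSCs. Ccl2, the main ligand of the receptor Ccr2 on monocytes, was at 2.97, 8.26 and 19.1 FPKM in SCPs 1 to 3 and 155, 119 and 142 FPKM in RSCs 1 to 3. Ccr2 itself is not among the 21 receptors that the rule found, so it has no value here and does not enter their sum. SCP 3 had the highest Ccl2 level of its group, yet it stayed far below each RSC sample, and the difference passed the test (log2 fold change 3.94 ± 0.57 SE, adjusted p = 0.00245). Ccl7, a second monocyte attractant of the same family, was at 1.13, 2.63 and 2.57 FPKM in SCPs and 38.5, 28.9 and 34.6 FPKM in RSCs, with no overlap (log2 fold change 3.52 ± 0.26 SE, adjusted p = 0.000196). Ccl12, a rodent ligand of Ccr2, was listed at 0, 0 and 1.61 FPKM in SCPs and at 6.62, 3.94 and 5.96 FPKM in RSCs. Its groups did not overlap (log2 fold change 2.22 ± 0.45 SE, adjusted p = 0.00901), but the call was lost without SCP 1, SCP 2, RSC 1 or RSC 3, with log2 fold changes of 1.99, 1.99, 2.09 and 2.16.

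The macrophage inflammatory proteins Ccl3 and Ccl4 and the T cell attractant Ccl5 rose as well. Ccl3 was at 10.3, 18.1 and 26.9 FPKM in SCPs and 121, 139.7 and 135 FPKM in RSCs (log2 fold change 2.86 ± 0.32 SE, adjusted p = 0.000927). Ccl4, its neighbour on chromosome 10, was at 3.03, 13.2 and 22.9 FPKM in SCPs and 118, 126 and 121 FPKM in RSCs (log2 fold change 3.46 ± 0.63 SE, adjusted p = 0.00602). In both genes RSC samples lay close together and SCP samples spread widely, with SCP 1 lowest and SCP 3 highest, as in Ccl2. The annotated spans of Ccl3 and Ccl4 share 62 bases, so reads there can belong to either gene. Ccl5, which also attracts monocytes, was listed at 0 in all 3 SCP samples and at 18.9, 7.25 and 11.5 FPKM in RSCs (adjusted p = 0.000492), and no fold is given against a group at 0.

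Ccl6 and Ccl9 are CC ligands found in rodents that act through Ccr1. Ccl6 was the ligand with the highest level in RSCs, at 255, 399 and 330.3 FPKM against 5.68, 11.4 and 13.6 FPKM in SCPs. Its groups were far apart (log2 fold change 4.93 ± 0.33 SE, adjusted p = 0.000139), and it ranked 202 to 301 among all symbols by FPKM in RSCs and 4834 to 7711 in SCPs. Among the called ligands, Cufflinks marked estimates above 0 as low data for Ccl6 in all 3 RSC samples, for Cx3cl1 in all 6 samples and for Cxcl9 in 2 RSC samples. Ccl9 was at 0.631, 1.03 and 2.16 FPKM in SCPs and 12, 13.3 and 10.7 FPKM in RSCs, again without overlap (log2 fold change 2.57 ± 0.29 SE, adjusted p = 0.000903). The FPKM of Ccl2, Ccl3, Ccl6 and Cxcl2 lay above the upper confidence limit that Cufflinks gave for them in all 3 RSC samples, and with values capped at that limit their calls stood and the summed ligand level in RSCs was 983 FPKM. The limits of Ccl6 were 148, 206 and 181 FPKM in RSCs 1 to 3, where Cxcl1, within its limits, was at 162, 143 and 177 FPKM. The top rank of Ccl6 in RSC 1 and its share of the ligand sum given above therefore rest on uncapped values.

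The eotaxins, which attract eosinophils through Ccr3, were low in both groups and higher in RSCs. Ccl11 was at 0.442, 0.411 and 0.233 FPKM in SCPs and 1.87, 3.43 and 3.37 FPKM in RSCs (log2 fold change 1.49 ± 0.27 SE, adjusted p = 0.00555). Ccl24 was listed at 0 in all 3 SCP samples and at 4.13, 4.53 and 1.92 FPKM in RSCs (adjusted p = 0.00261). All 10 tested CC ligands were thus called higher in RSCs, against 18.1% of all tested genes. Of these, 9 passed the 4-fold threshold, all but Ccl11, against 7.81% of all tested genes. For Ccl5 and Ccl24 the fitted size depends on the pseudocount. Ccl5, Ccl11, Ccl12 and Ccl24 passed the filter through RSCs only, so their direction in this count is not independent of the filter.

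Of the other 10 CC ligands, which had means under 1 FPKM and were not tested, 5 were listed at 0 in all 6 samples. These were Ccl1, Ccl17, Ccl26, Ccl27 and Ccl28, ligands known from T cell, skin, mucosal and eosinophil attraction. Ccl21, which guides dendritic cells and naive T cells to lymph nodes through Ccr7, was at 0, 1.25 and 1.14 FPKM in SCPs and 0.973, 0 and 1.27 FPKM in RSCs, with the groups overlapping. Ccl19, the other Ccr7 ligand, was listed at 0 in SCPs and at 0.801, 0 and 0.785 FPKM in RSCs. Ccl20, Ccl22 and Ccl25 stayed at or below 0.347 FPKM in each sample.

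The CXC ligands that attract neutrophils through Cxcr2 were higher in RSCs. Cxcl1 was at 3.75, 6.11 and 5.44 FPKM in SCPs and 162, 143 and 177 FPKM in RSCs, with a narrow spread in both groups (log2 fold change 4.75 ± 0.18 SE, adjusted p = 2.69e-05). Cxcl2 was at 2.47, 6.73 and 8.82 FPKM in SCPs and 72.6, 78.8 and 77.5 FPKM in RSCs (log2 fold change 3.59 ± 0.38 SE, adjusted p = 0.000778). These are 2 of the genes whose windows printed above carry NF-kappaB matches. Cxcl3 was much lower, at 0, 0.161 and 0.73 FPKM in SCPs and 5.03, 2.06 and 4.07 FPKM in RSCs (log2 fold change 1.85 ± 0.37 SE, adjusted p = 0.00822), and its call was lost without SCP 2 or RSC 3 (log2 fold changes 1.79 and 1.77). Cxcl1, Cxcl2 and Cxcl3 resemble each other in sequence, as do Ccl2, Ccl7 and Ccl12, and how reads that fit more than 1 of them were divided is not given in the sources used here. Cxcl6, a further ligand of this type, was not tested, at 0, 0.811 and 0.066 FPKM in SCPs and 0.0761, 0.139 and 0.494 FPKM in RSCs.

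The interferon-induced ligands of Cxcr3, a receptor of activated T cells and natural killer cells, differed mainly through Cxcl10. This gene was at 0.368, 0.343 and 0.97 FPKM in SCPs and 84.7, 34.7 and 36.3 FPKM in RSCs, with no overlap (log2 fold change 4.98 ± 0.39 SE, adjusted p = 0.000253). RSC 1 was above the other two RSC samples for Cxcl10, and the same sample was highest for Cxcl9, at 0.972, 1.8 and 1.03 FPKM in SCPs and 25.4, 4.47 and 9.16 FPKM in RSCs. Cxcl9 was called (log2 fold change 2.35 ± 0.58 SE, adjusted p = 0.0188), with groups that did not overlap, but the call was lost without SCP 1, SCP 2, SCP 3 or RSC 3 (log2 fold changes 2.25, 2.51, 2.28 and 2.43). Cxcl11 was listed at 0 in all 3 SCP samples and at 6.8, 1.34 and 0 FPKM in RSCs, and it did not pass the test (adjusted p = 0.173).

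Cxcl12, the ligand of Cxcr4, ran in the opposite direction. It was at 208, 205 and 119.8 FPKM in SCPs and 14.3, 13.6 and 11.5 FPKM in RSCs, so that each SCP sample was above each RSC sample. The ratio of means was 13.5 in favour of SCPs, and the log2 fold change was -3.62 ± 0.24 SE (adjusted p = 0.000131). It ranked 352 to 583 by FPKM among all symbols in SCPs and 4546 to 5307 in RSCs. Its log2 fold change stayed between -3.88 and -3.41 under the alternatives tried.

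Cxcl12 has 3 annotated transcripts, distinguished here by their length. The transcript of 2850 bases held 63.7%, 66.6% and 64.5% of Cxcl12 FPKM in SCPs 1 to 3 and 19.5%, 24.3% and 28.6% in RSCs 1 to 3, a difference of -40.8 percentage points. The transcript of 1845 bases held 23.1%, 21.5% and 25.6% in SCPs and 65.7%, 53.8% and 52.3% in RSCs, a difference of 33.9 points. The transcript of 5423 bases held 9.93% to 13.2% in SCPs and 14.8% to 21.8% in RSCs. For each transcript the groups did not overlap and a two-sided exact permutation test gave p = 0.1, the smallest value that 3 samples against 3 allow. Every transcript was lower in RSCs in absolute level, the longest of them at 2.43 ± 0.471 FPKM against 21.3 ± 8.3 FPKM in SCPs (mean ± SD, n = 3). The division of reads among these overlapping transcripts is an estimate by Cufflinks.

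**Figure D2:**
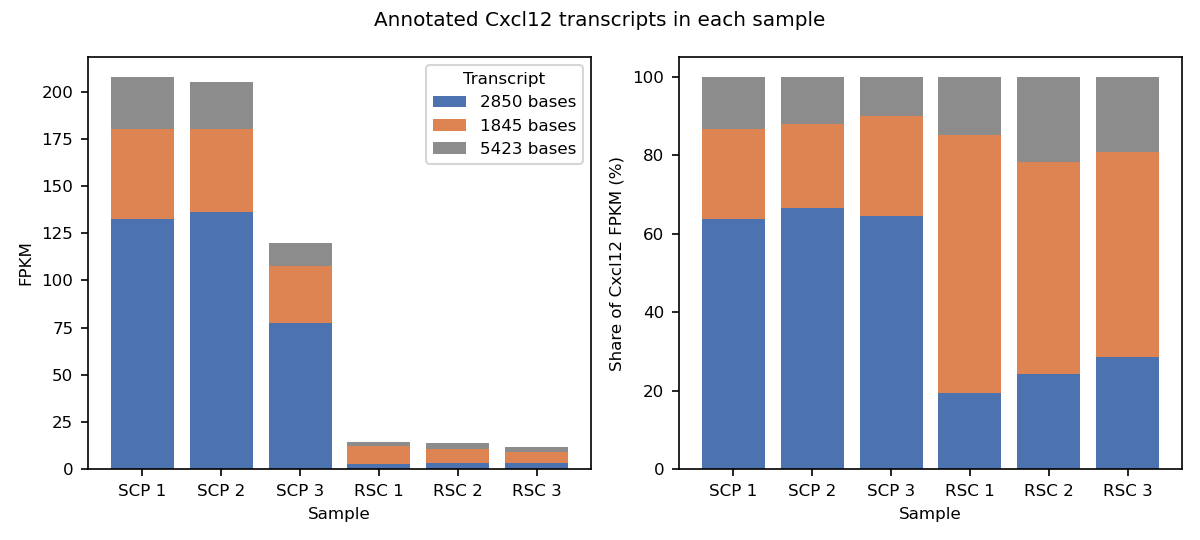
FPKM of the 3 annotated Cxcl12 transcripts stacked for each sample (left) and the share of each transcript in the Cxcl12 FPKM of that sample in percent (right). The transcript of 2850 bases holds 63.7% to 66.6% in SCPs and 19.5% to 28.6% in RSCs.

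The remaining CXC ligands were at lower levels. Cxcl16, a membrane-anchored ligand of Cxcr6 and a scavenger receptor for oxidized lipoprotein, was at 0.674, 1.38 and 1.44 FPKM in SCPs and 22.5, 35.1 and 32.3 FPKM in RSCs, with no overlap (log2 fold change 3.83 ± 0.25 SE, adjusted p = 0.000131). Cxcl14, a ligand without a settled receptor, was at 8.74, 2.72 and 6.65 FPKM in SCPs and 12.9, 15.3 and 16.2 FPKM in RSCs. Its groups did not overlap but it missed the threshold (log2 fold change 1.27 ± 0.37 SE, adjusted p = 0.033), and it passed without SCP 1 or SCP 2 (1.56 and 0.87). Cxcl13, a B cell attractant acting through Cxcr5, was at 3.13, 5.63 and 2.81 FPKM in SCPs and 1.56, 2.24 and 0.681 FPKM in RSCs. Its groups did not overlap, with SCPs higher, but it was not called (log2 fold change -0.97 ± 0.35 SE, adjusted p = 0.0689). Cxcl17 was listed at 0 in all 6 samples.

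The single ligands of the CX3C and XC classes were low. Cx3cl1, or fractalkine, a membrane-bound ligand that neurons and endothelium express, was at 0.481, 0.899 and 0.887 FPKM in SCPs and 3.87, 3.39 and 2.11 FPKM in RSCs. It was called higher in RSCs (log2 fold change 1.22 ± 0.27 SE, adjusted p = 0.012), and the call was lost without SCP 1, RSC 1 or RSC 2 (1.10, 1.08 and 1.16). Xcl1, made by T cells and natural killer cells, was listed at 0, 1.05 and 0 FPKM in SCPs and 5.41, 0 and 2.8 FPKM in RSCs, with overlapping groups, and it was not called (adjusted p = 0.241), although it passed without RSC 2 (log2 fold change 1.96).

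**Figure D3:**
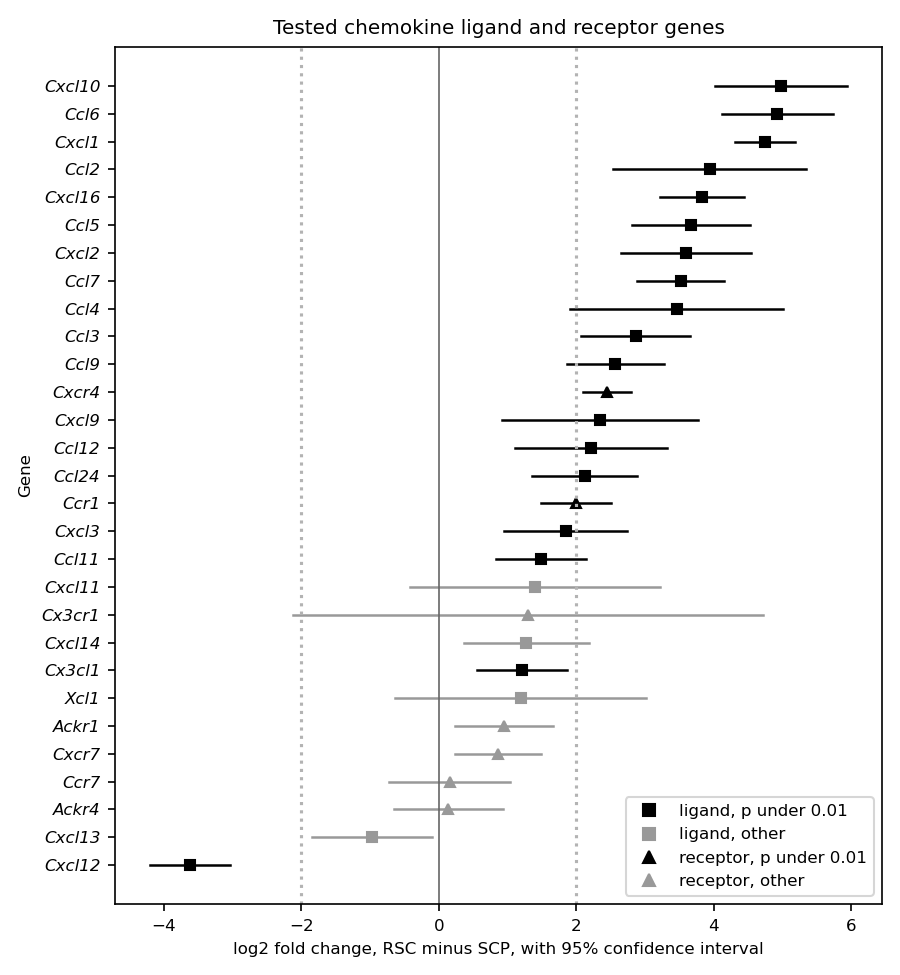
Log2 fold change (RSC minus SCP, on log2(FPKM + 1)) with its 95% confidence interval for 29 of the 30 tested members, ligands as squares and receptors as triangles, black where p was under 0.01, with dotted lines at the 4-fold thresholds. Cxcl10, Ccl6 and Cxcl1 lie at the top with 4.98, 4.93 and 4.75, and Cxcl12 lies alone at the bottom with -3.62.

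The receptors were at lower levels than the ligands and fewer of them passed the test. Their summed FPKM was 29.5, 34.2 and 48.2 in SCPs 1 to 3 and 109, 124 and 82.7 in RSCs 1 to 3. Of the 21 receptors 8 were tested, and 2 of these (Ccr1 and Cxcr4) were called higher in RSCs, none in SCPs, and 6 were not called, with a median log2 fold change of 0.91. Past 4-fold there was 1, Cxcr4. The 2 receptors called and the 1 past 4-fold, among 8 tested, compare with 18.1% and 7.81% of all tested genes. With so few receptors tested, these counts are not read as a result about receptors. Ackr1, Ccr1 and Cx3cr1 were among the receptors that passed the filter through RSCs only.

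The receptors of Cxcl12 did not follow their ligand. Cxcr4, through which Cxcl12 signals to G proteins, was at 3.87, 4.36 and 3.96 FPKM in SCPs and 29.8, 23.3 and 27.3 FPKM in RSCs, with a small spread in both groups and no overlap (log2 fold change 2.45 ± 0.14 SE, adjusted p = 8.61e-05). Cxcr7, the atypical receptor now named Ackr3, binds Cxcl12 and Cxcl11 and takes them up, and it was the most abundant receptor in every sample. It was at 22.6, 24 and 38.8 FPKM in SCPs and 61.7, 53.6 and 40.6 FPKM in RSCs, where SCP 3 lay just under RSC 3. The difference missed the threshold (log2 fold change 0.87 ± 0.25 SE, adjusted p = 0.0339), and it passed without SCP 3 (1.10) or with median-of-ratios scaling (1.07). Cxcr7 held 70.1% to 80.6% of the receptor FPKM in SCPs and 43.3% to 56.7% in RSCs, and Cxcr4 held 8.23% to 13.1% and 18.9% to 33.0%.

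Among the CC receptors, Ccr1, which binds Ccl3, Ccl5, Ccl6 and Ccl9 on monocytes and neutrophils, was at 0, 0.195 and 0.11 FPKM in SCPs and 3.29, 3.58 and 3.3 FPKM in RSCs. It was called higher in RSCs (log2 fold change 2.0 ± 0.21 SE, adjusted p = 0.000705), just under the 4-fold threshold. Ccr7, the receptor of Ccl19 and Ccl21, was at 1.35, 1.58 and 2.86 FPKM in SCPs and 3.28, 1.13 and 2.59 FPKM in RSCs and did not differ beyond its spread (log2 fold change 0.16 with a 95% confidence interval from -0.72 to 1.04). Without RSC 1 the Ccr7 estimate was -0.052.

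Cx3cr1, the fractalkine receptor of monocytes and resident macrophages, was listed at 0, 1.03 and 0 FPKM in SCPs and 0, 29 and 0 FPKM in RSCs, so that its level rested on RSC 2, and without that sample the log2 fold change turned from 1.3 to -0.34. Cufflinks had also assembled transcripts without a gene name at some loci, separately in each sample, and these were added to the gene they overlap in a second count. With them Cx3cr1 was at 0.646, 1.97 and 1.74 FPKM in SCPs and 19.9, 36.2 and 24.1 FPKM in RSCs, with no overlap (log2 fold change 3.5 ± 0.30 SE, adjusted p = 0.000104 by limma over 14020 genes). Counted in this way, 5 receptors were called higher in RSCs (Ackr1, Ccr1, Cx3cr1 and Cxcr4 among them) against a background of 23.2%, and 4 of them passed 4-fold, all but Ccr1, against 8.57%. Among the ligands 18 were then called higher in RSCs and 2 in SCPs (background 34.1%), the added ones being Cxcl14 and Cxcl13. No unnamed transcript was added to Cxcl14. Its log2 fold change stayed at 1.27, and its SE was 0.35 in the fit over 14020 genes against 0.37. Cxcl12 remained the 1 ligand over 4-fold higher in SCPs (background 4.58%). In this count 24 members had groups that did not overlap with RSCs higher and 2 with SCPs higher, against 28.8% and 43.6% of all tested genes.

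The other atypical receptors were low. Ackr1, which binds many inflammatory chemokines on venular endothelium and red cells, was at 0.454, 0.728 and 0.41 FPKM in SCPs and 1.29, 3.02 and 1.77 FPKM in RSCs and was not called (log2 fold change 0.95 ± 0.29 SE, adjusted p = 0.0384), whereas adding unnamed transcripts gave 10.7, 3.02 and 5.81 FPKM in RSCs (log2 fold change 2.16 ± 0.38 SE, adjusted p = 0.00245 over 14020 genes). Ackr4, which takes up Ccl19, Ccl21 and Ccl25, was at 0.7, 1.67 and 1.15 FPKM in SCPs and 1.13, 0.86 and 2.28 FPKM in RSCs, with overlapping groups and a log2 fold change (0.14) that turned to -0.059 with quantile normalization and to -0.026 and -0.10 without SCP 1 and RSC 3. Ackr2, the scavenger of inflammatory CC ligands, was listed at 0 in 5 samples and at 0.0606 FPKM in RSC 2.

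The 13 receptors that were not tested reached at most 2.34 FPKM, in Ccr4 of RSC 1. Ccr4, a receptor of Ccl17 and Ccl22 on T cells, was at 0.195, 0.181 and 0.213 FPKM in SCPs and 2.34, 0.431 and 1.07 FPKM in RSCs. Cxcr3, the receptor of Cxcl9, Cxcl10 and Cxcl11, was at 0.117, 0 and 0 FPKM in SCPs and 1.71, 0.65 and 0.827 FPKM in RSCs, and RSC 1 was highest for it as for these ligands. The neutrophil receptors Cxcr1 and Cxcr2, whose ligand Cxcl1 was among the most abundant ligands of RSCs, were listed at 0 in all SCP samples and at 0, 1.12 and 0.713 FPKM and 0.186, 0.17 and 0 FPKM in RSCs. Ccr3, the eotaxin receptor, and Ccr6, the receptor of Ccl20, were at most 0.678 and 0.68 FPKM. Ccr8, Ccr9, Ccr10, Cxcr6 and Xcr1 were listed at 0 in all SCP samples and in RSCs reached 1.3, 0.353, 0.563, 0.971 and 0.672 FPKM. Cxcr5 was listed at 0 in all 6 samples.

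**Figure D4:**
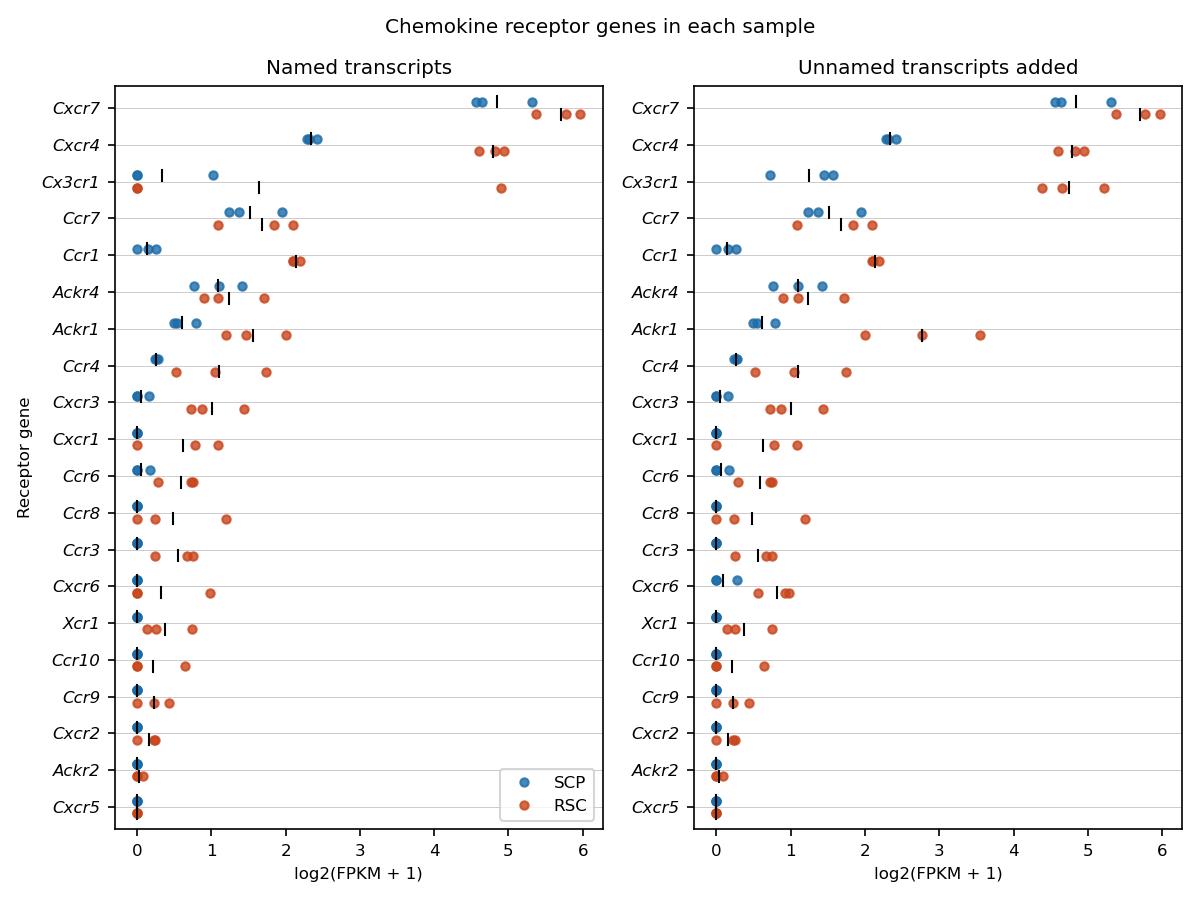
Level of 20 of the 21 receptor genes as log2(FPKM + 1) in SCPs (blue) and RSCs (orange) from named transcripts (left) and with unnamed transcripts at the same locus added (right), with a black line at the group mean. Cxcr7 and Cxcr4 are the same in both panels, while Cx3cr1 moves from 0 to 19.9 FPKM in RSC 1 and from 0 to 24.1 FPKM in RSC 3.

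Neighbouring members on the rn6 genome were set side by side, joining members less than 0.5 Mb apart. On chromosome 10 the cluster that starts at 69412065 with Ccl2 holds Ccl2, Ccl7, Ccl11, Ccl12 and Ccl1, of which 4 of 4 tested were called higher in RSCs and Ccl1 was listed at 0. The cluster that runs from 70739764 to 70886357 holds Ccl5, Ccl9, Ccl6, Ccl3 and Ccl4, and 5 of 5 were called higher. On chromosome 14 the Cxcr3 ligands Cxcl11, Cxcl10 and Cxcl9 lie together from 17195395, with 2 of 3 called higher, and Cxcl2, Cxcl1, Cxcl3 and Cxcl6 from 18731346, with 3 of 3 tested called higher. These counts stand beside the 18.1% of all tested genes called higher in RSCs. Levels within a cluster were unequal, since Cxcl6 stayed under 1 FPKM beside Cxcl1. Cx3cl1 on chromosome 19 was called, while its neighbours Ccl17 and Ccl22 were not tested, and none of Ccl27, Ccl19 and Ccl21 on chromosome 5 passed the filter. In the receptor cluster on chromosome 8, Ccr1 was called, and its neighbours Ccr9, Cxcr6, Xcr1 and Ccr3 did not pass the filter. Cxcl12, called in the other direction, lies apart from these clusters on chromosome 4 (149261044 to 149273891). Within the clusters, Ccl5, Ccl11, Ccl12, Cxcl3, Cxcl10, Cxcl11, Cx3cl1 and Ccr1 passed the filter through RSCs only. The direction of these genes in the cluster counts is therefore not independent of the filter.

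**Figure D5:**
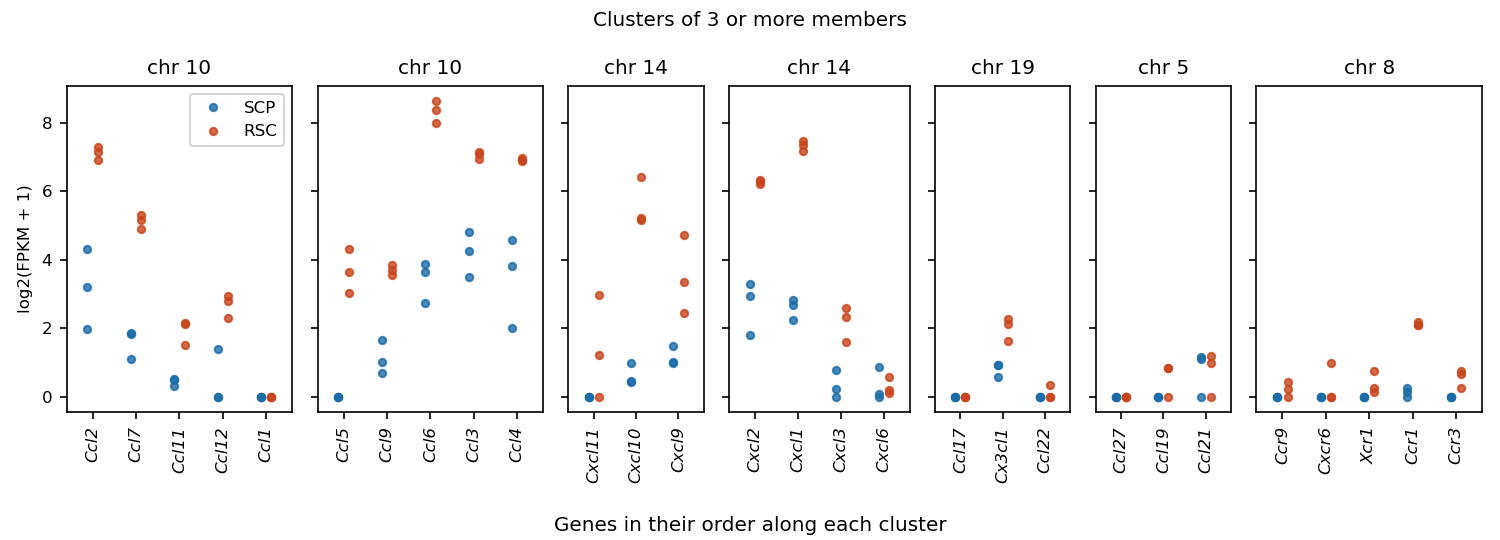
Level as log2(FPKM + 1) of the reported members in each genomic cluster of 3 or more, in their order along the chromosome and not to distance, with SCP samples in blue and RSC samples in orange. In the 2 clusters on chromosome 10 each gene but Ccl1 has its RSC samples above its SCP samples.

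Chemokine family genes under other symbols were read beside the members. Pf4, the platelet chemokine also known as Cxcl4, was at 28, 21.6 and 10.7 FPKM in SCPs and 65.1, 151 and 107 FPKM in RSCs and was called higher in RSCs (log2 fold change 2.38 ± 0.44 SE, adjusted p = 0.00614). Ccrl2, an atypical receptor of chemerin, was at 1.56, 0.315 and 2.03 FPKM in SCPs and 3.31, 4.78 and 2.68 FPKM in RSCs and was not called (adjusted p = 0.0683). Ppbp, another platelet chemokine, was at 1.11, 0 and 0 FPKM in SCPs and was listed at 0 in RSCs.

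Genes listed as regulators of chemokine transcription, inducers for the most part but also inhibitors such as Nfkbia, were mostly higher in RSCs. Of 18 tested, 17 were called higher in RSCs (18.1% of all tested genes) and none in SCPs, 10 of them past 4-fold (7.81%), with a median log2 fold change of 2.50 against -0.17 over all tested genes. The cytokine Il6 was listed at 0 in all 3 SCP samples and at 25.8, 15.8 and 14.3 FPKM in RSCs, and Relb, an NF-kappaB subunit, was listed at 0 in SCPs and at 21.2, 16.2 and 16.1 FPKM in RSCs. Nfkbia, the inhibitor of NF-kappaB that is itself induced by it, was at 10.7, 15.4 and 17.4 FPKM in SCPs and 279, 226 and 243 FPKM in RSCs (log2 fold change 4.04 ± 0.19 SE, adjusted p = 4.58e-05). The dissociation genes named above moved the same way, and their part in these values was not tested.

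Genes of chemokine receptor signalling were called higher in RSCs for 19 of 35 tested and higher in SCPs for 1, against 18.1% and 22.4% of all tested genes, with a median log2 fold change of 0.67. Rac2, a GTPase of blood cells, was at 3.06, 5.38 and 3.53 FPKM in SCPs and 31, 33 and 37.5 FPKM in RSCs (log2 fold change 2.83, adjusted p = 0.00019). Leukocyte markers moved with it as given above, and their part in the result was not tested. The G protein subunit gene Gng10 was higher in SCPs, at 83.9, 85.7 and 77.5 FPKM against 70.8, 61.7 and 60.3 FPKM (log2 fold change -0.35, adjusted p = 0.0233), a call that was lost with median-of-ratios scaling (-0.14).

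Receptor kinases, arrestins and RGS proteins, which end the receptor signal, were called higher in RSCs for 4 of 14 tested and higher in SCPs for 1, against 18.1% and 22.4% of all tested genes, with a median of 0.41. Rgs16 was at 8.11, 3.78 and 15.7 FPKM in SCPs and 136, 167 and 207 FPKM in RSCs (log2 fold change 4.23 ± 0.46 SE, adjusted p = 0.000815), and Rgs1 at 1.73, 4.82 and 4.54 and 55.8, 63 and 40.7 FPKM (log2 fold change 3.58 ± 0.34 SE, adjusted p = 0.000506). Both shorten signalling by inhibitory G proteins. Rgs12 was higher in SCPs, at 12.5, 14.2 and 9.15 FPKM against 2.21, 3.9 and 3.25 FPKM (log2 fold change -1.65, adjusted p = 0.0028).

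Genes of chemokine cleavage and matrix presentation were called higher in RSCs for 8 of 16 tested and higher in SCPs for 2, against 18.1% and 22.4% of all tested genes, with a median of 1.15. Dpp4, a protease that truncates Cxcl12, Cxcl10 and other chemokines, was at 1.27, 1.44 and 0.684 FPKM in SCPs and 23.1, 29.1 and 18.4 FPKM in RSCs (log2 fold change 3.52 ± 0.25 SE, adjusted p = 0.000165). The syndecans, which carry heparan sulfate that binds chemokines, went both ways. Sdc4 was at 4.35, 7.37 and 4.11 FPKM in SCPs and 64.6, 61.7 and 63.1 FPKM in RSCs (log2 fold change 3.39, adjusted p = 0.000105), Sdc1 at 36, 27 and 21.1 and 7.15, 7.85 and 10.3 FPKM (-1.6, adjusted p = 0.0026) and Sdc3 at 77.8, 80.5 and 85.9 and 54.1, 51.6 and 50.1 FPKM (-0.64, adjusted p = 0.00128).

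Other leukocyte attractants and their receptors were called higher in RSCs for 7 of 8 tested, all past 4-fold (7.81% of all tested genes), and higher in SCPs for 1 (22.4%), with a median of 3.12. Cd74, the receptor of Mif and the invariant chain of antigen-presenting cells, was at 0.515, 0.64 and 0.905 FPKM in SCPs and 561, 408 and 341 FPKM in RSCs (log2 fold change 7.99, adjusted p = 1.28e-05), and Anxa1, a ligand of formyl peptide receptors, at 3.35, 8.83 and 7.46 and 403, 464 and 589 FPKM (6.07, adjusted p = 7.01e-05). Mif itself was higher in SCPs, at 292, 212 and 175 FPKM against 134, 110.2 and 127 FPKM (log2 fold change -0.84, adjusted p = 0.0152), a call that was also lost with median-of-ratios scaling (-0.63).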

How the data were processed

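Stranded, paired-end mRNA libraries of 3 SCP and 3 RSC samples were sequenced. The authors mapped reads to rn6 with TopHat2 2.1.0, checked them with FastQC 0.11.2 and deposited 1 Cufflinks 2.2.1 table per sample, with FPKM per transcript and its confidence limits (also FPKM), transcript length, and read coverage, a signal used here for relative depth. These versions are those of the submitters' processing notes. The Cuffdiff output was not used here.

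FPKM of named transcripts were summed by symbol, and 77 transcripts named as dates were left out of each table. Genes averaging 1 FPKM or more across the samples were compared by limma 3.58.1 (R 4.3.3) on log2(FPKM + 1) with a variance trend, two-sided, without a replicate block. Tables were handled with pandas 2.3.3, and exact permutation tests used scipy 1.17.1. The tables hold no counts, so no count test was run, depth is unknown and no counting interval can be given.

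On simulated data of 13003 genes, 88.5% of 200 genes changed by a log2 fold change of 3 were called, and 1.12% of unchanged genes. Noise was drawn independently from a normal distribution with each gene's spread, so the share of unchanged genes called was largely set by the threshold. In the data 40.5% of tested genes were called, and failed estimates listed at 0 were not simulated as such. The simulation therefore checks the procedure and does not measure the error rate of these calls. Cxcl10, Ccl6, Cxcl1, Cxcl2 and Cxcl12 were chosen for printing after their values were seen. The members, the gene lists (written by hand) and the named genes were chosen with earlier results of these data known. Members were described by their level in each sample, and of each pathway list up to 2 genes per direction were named, those with the largest changes at p under 0.01, with Rac1, Aif1, Sox10 and Nfkbia added afterwards. Some genes that this rule names are left out of the text. The labels give the rats as wild type, whereas the methods describe cells prepared from rats carrying a red fluorescent protein transgene. Alternatives were another pseudocount or filter, 2 other scalings, adjusted p, a block for replicate number, no variance trend, only the highest transcript of a gene, unnamed transcripts added, zeros left out and each sample left out. Capping FPKM at the upper confidence limit was chosen after seeing the data.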

Additional observations from a re-analysis of the deposited data

Results flagged for a closer look

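The comparisons of named transcripts do not use transcripts without a gene name. At the loci of 2 members these carried signal above the level in SCPs in all 3 RSC samples. At other members, Ackr1, Ccl6, Cxcl9, Cxcl16 and Cxcl3 among them, they were listed in some RSC samples and in no SCP sample. At Ccl7, Ccl4 and Cxcl13 they were listed in an SCP sample and in no RSC sample. They held 7.10 FPKM at Ccl7 in SCP 3, 3.56 FPKM at Ccl4 in SCP 2 and 2.58 FPKM at Cxcl13 in SCP 3. Adding them put Ccl7 at 9.67 FPKM in SCP 3, with a log2 fold change of 3.00 ± 0.55 SE against 3.52 ± 0.26 SE. At Cx3cr1 the unnamed transcripts held 19.9, 7.20 and 24.1 FPKM in RSCs 1 to 3, against 0.646, 0.946 and 1.74 FPKM in SCPs 1 to 3. At Cxcl1 they held 68.6, 61.3 and 53.3 FPKM in RSCs 1 to 3, and no unnamed transcript was listed there in SCPs. Named transcripts of Cx3cr1 were listed at 0 in RSC 1 and RSC 3, and those of Cxcl1 were at 162, 143 and 177 FPKM in RSCs 1 to 3.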

How the results depend on the processing

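Among 527 recomputed results for the 30 tested members under 18 alternative settings, 489 kept their direction and their side of the threshold, 18 lost the call, 15 gained it and 5 changed direction. The changes of direction were in log2 fold changes that were not called. Ackr4 turned to -0.059 with quantile normalization and ran from -0.10 (without RSC 3) to 0.31 with a sample left out, negative also without SCP 1 (-0.026). Ccr7 ran from -0.052 (without RSC 1) to 0.45, and Cx3cr1 from -0.34 (without RSC 2) to 2.11. The cause was not tested. Receptors called higher in RSCs numbered 4 without the filter, 1 at a mean of at least 5 FPKM, 5 with unnamed transcripts and 4 with zeros left out, against 2. Past 4-fold they numbered 2 with a pseudocount of 0.1, with median-of-ratios scaling and with zeros left out, 4 with unnamed transcripts, and 1 to 2 with a sample left out, against 1. Ligands called higher in SCPs numbered 2 with unnamed transcripts. Pathway genes called higher in SCPs numbered 3 with median-of-ratios scaling, without the variance trend and by adjusted p, 8 with unnamed transcripts, and 3 to 5 with a sample left out, against 5. Ligands called higher in RSCs numbered 14 to 17 with a sample left out. The summed ligand FPKM of RSCs (mean 1166) was 1238 with median-of-ratios scaling, 1261 with unnamed transcripts and 983 at the upper limit, that of SCPs (mean 260.3) was 197 with the highest transcript per gene, and the receptor sum of RSCs (mean 105) was 131 with unnamed transcripts.

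Samples with the same replicate number did not deviate together (correlations of residuals 0.04, -0.005 and 0.03), and SCP 2 did not correlate best with RSC 2, so the numbers were not taken as pairs. With the replicate number as a block 15 ligands were called higher in RSCs against 17, Cx3cl1 and Cxcl9 losing the call, 1 in SCPs, and 2 receptors in RSCs.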
